A study of Avicennia schaueriana with 18 samples.

Results

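The 200 flower-specific coding transcripts of the mangrove tree *Avicennia schaueriana* were selected on measured levels, as those whose lowest level in any flower library stood farthest above their highest level in any leaf or stem library. They were taken from 30113 coding transcripts, out of 49490 transcripts in the deposited table of counts. Each count was divided by the total of its library and multiplied by 1000000, which gives the level in CPM. A transcript's score was log2 of its lowest CPM over the 6 flower libraries plus 1, divided by its highest CPM over the 12 leaf and stem libraries plus 1, and the 200 highest scores were kept. Non-coding transcripts and the 114 coding transcripts that the study's supplementary lists name for leaf and stem differences or for PCR were outside the choice. Since flower, leaf and stem levels chose the members, their distance between tissues is a description with no test.

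*A. schaueriana* is a dominant tree of the Atlantic coast of South America, and leaves, stems and flowers were collected from 6 adult flowering trees under field conditions, with no treatment. Trees Eq4, Eq5 and Eq6 stood at an equatorial site, at 28.3 to 30.1 °C and 47 to 51% relative humidity when sampled, and trees St1, St2 and St4 at a subtropical site, at 18.3 to 20.9 °C and 82 to 86%. From every tree there was 1 library of each tissue, which makes 18. The sites were sampled on different days and in different seasons, and the study describes their populations as genetically contrasting. Site therefore cannot be told apart from weather, from flowering stage or from the genotype of the population. The labels name neither a stage nor a floral organ.

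A flower holds organs with no counterpart elsewhere in the plant, such as petals, stamens with their pollen and the ovary with its ovules. In well-studied plants, many transcripts found only in flowers belong to the anther, where the tapetum feeds and coats the growing pollen, and to the pollen grain itself. Because such tissues exist for a short time, the level of a flower-specific transcript in a whole flower follows how much of that organ is present and its stage as well as its activity per cell. In bulk libraries, fewer cells of a type and less RNA per cell cannot be told apart.

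None of the 200 transcripts is paired with a gene name in the sources used here, and none is among the 16 transcripts that the study named beside its signs of selection. Neither their sequences nor their lengths were used here, so the members are described by number and level, with no account of what their products do. A count grows with the length of a transcript. Levels are therefore compared between libraries for the same transcript, and an order of levels between transcripts is an order of counts.

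Several libraries stood apart before any comparison of the members. The flower library labelled Eq6 was of doubtful site. A set of 65 transcripts was present in all leaves and stems of the subtropical trees and absent from those of the equatorial trees. Of these, it counted 53, the flowers of Eq4 and Eq5 counted 3 each, and the subtropical flowers counted 48 to 59. Of the 36 transcripts with the reciprocal pattern it counted 6, against 31 in Eq4 and in Eq5 and 1 or 2 in the subtropical flowers. Site differences are given with and without this library. The stem library labelled St1 held more of the members' counts than any other stem or leaf, as described further on. Totals per library were 5055480 to 11172632 counts in flowers, 9894226 to 15802680 in stems and 8749713 to 14313994 in leaves, with the fewest in the flowers of Eq4.

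The flower label was set beside markers of the other tissues. Summed over the 8 photosynthesis transcripts of the study's list, flowers held 78.2 to 272 CPM, stems 206 to 509 and leaves 388 to 1370. The 3 secondary wall cellulose synthases CESA4, IRX3 and CESA8 build the walls of wood vessels and fibres. They summed to 50.03 to 129 CPM in flowers and 5.03 to 59.1 in leaves. In stems they summed to 87.6 to 400 CPM, except 1892 in Eq6. Of the whole list of 35 cell wall transcripts, flowers held 653 to 986 CPM and leaves 74.3 to 454. Stems held 692 to 1536 CPM, except 6435 in Eq6. Each of these sums overlapped between flowers and stems. No transcript of these lists was at 0 in all flowers. DEX1, required in *Arabidopsis* for the patterned pollen wall, had 78.9 to 128 CPM in flowers, 76.5 to 87.5 in stems and 60.3 to 79.9 in leaves. AGL24, a promoter of flowering in *Arabidopsis*, had 0 to 3.71 CPM in flowers and 0.887 to 21.3 in leaves. DEX1 overlapped between flowers and stems and AGL24 between flowers and leaves, so neither set the flower libraries apart, whereas the 200 members did so by their choice.

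The scores of the members ran from 2.21 to 6.26 with a median of 3.18. The lowest flower level plus 1 thus exceeded the highest leaf or stem level plus 1 by 4.64-fold in the last member, 9.07-fold in the median member and 76.6-fold in the first. Just inside the threshold, As_21859 had at least 104 CPM in flowers against at most 21.6 elsewhere, and As_37515 had 13.3 against 2.07. Just outside it, As_1244 had 7.34 CPM against 0.809, and As_21912 had 26.1 against 4.94. The members near the threshold thus include transcripts with a clear level in a leaf or a stem, and the list has no natural edge, since 527 eligible transcripts scored over 1 and 230 over 2. The same rule gave a stem list whose last score was 1.18 and a leaf list whose last score was 1.01.

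**Figure D1:**
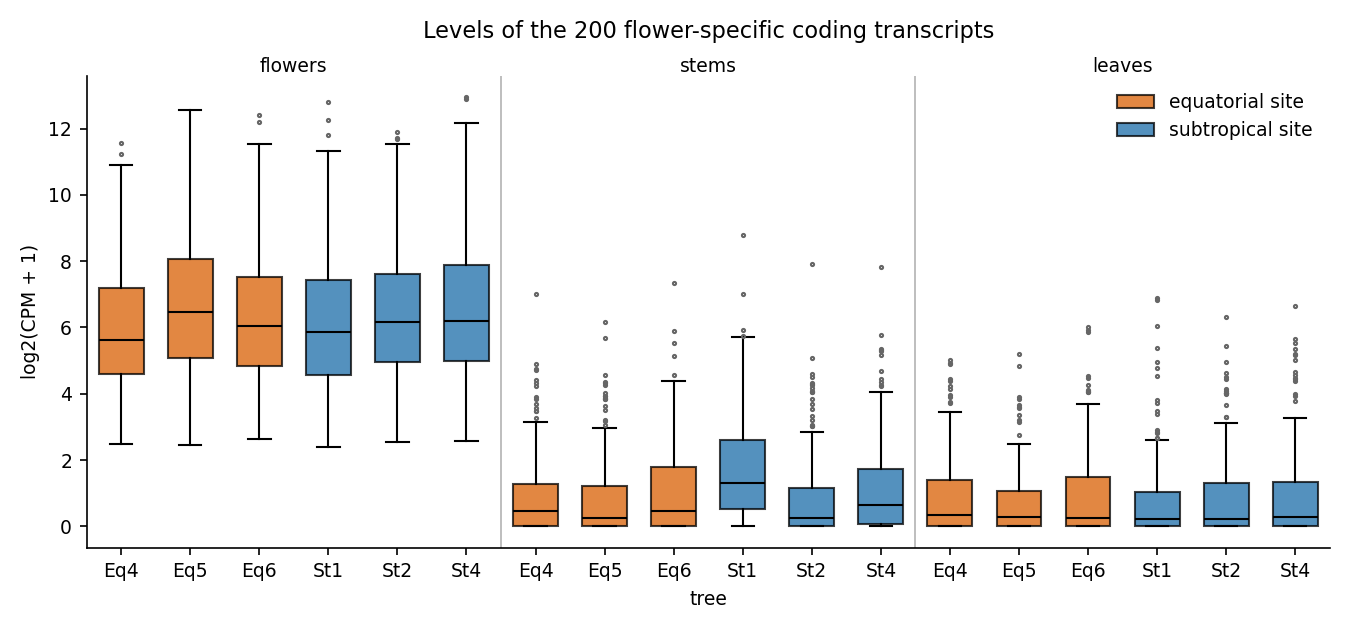
Levels of the 200 flower-specific coding transcripts in the 18 libraries, as log2(CPM + 1) on the vertical axis, by tree and tissue. Boxes span the quartiles with the median as a line, whiskers reach 1.5 times the box, points lie beyond, and colours give the labelled site. The flower medians lie between 48.7 and 86.7 CPM, and of the leaf and stem libraries the St1 stem has the highest median, 1.48 CPM.

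In flowers, the members took 3.33, 6.87 and 4.81% of the counts in Eq4, Eq5 and Eq6 and 4.88, 4.63 and 6.58% in St1, St2 and St4. Their 95% Wilson intervals reached at most 0.0160 percentage points on either side, which covers counting error only and not the variation between trees. In stems they took 0.0464 to 0.154% and in leaves 0.0274 to 0.0641%. The flowers of Eq5 and St4 held the largest shares and those of Eq4 the smallest, so trees of the same site lay at both ends.

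Most of this mass came from few transcripts. The mean flower level of a member ran from 7.45 to 4916 CPM with a median of 65.9 and quartiles of 33.1 and 202, and 12 members had over 1000 CPM, 78 over 100 and 5 under 10. The 5 highest members held 34.4% of the summed level and the 20 highest 64.0%. Every member was counted in every flower library, with 23 counts as the lowest value.

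As_44819 had the highest mean flower level. It reached 1917, 3945 and 5421 CPM in Eq4, Eq5 and Eq6 and 7209, 3343 and 7661 in St1, St2 and St4, so that the lowest and the highest value came from different sites with overlapping ranges. Its leaf levels were 3.44 to 65.1 CPM, and its stem levels 0.202 to 9.09 CPM except 127 in St1. The second highest, As_27573, kept a clear level in stems. Its flowers held 2431, 4542 and 4718 CPM in Eq4, Eq5 and Eq6 and 4855, 3825 and 7894 in St1, St2 and St4, its stems 70.7 to 444 CPM and its leaves 5.77 to 30.3. This member ranked 165 by score despite its flower level, because the stem level entered the rule. As_38507 was nearly restricted to flowers, with 3023, 3750 and 1311 CPM in Eq4, Eq5 and Eq6 and 2543, 2954 and 1447 in St1, St2 and St4. Outside flowers it had 44.6 CPM in the St1 stem and at most 3.10 in the other 11 libraries.

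The first member by score was As_24067, which varied little between trees. Its flowers held 326, 455 and 345 CPM in Eq4, Eq5 and Eq6 and 332, 325 and 371 in St1, St2 and St4. In the St1 stem it had 3.26 CPM, from 44 counts, and in the other 11 leaf and stem libraries 0 to 0.316 CPM. The next 4 members by score, As_24073, As_22493, As_24061 and As_23683, had mean flower levels of 254 to 827 CPM. Each of these 4 was also highest outside flowers in the St1 stem, at 3.11 to 9.77 CPM.

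Flower levels above both other tissues were also seen in trees that took no part in the choice. When the rule was applied to 5 trees and the levels read in the sixth, 200 of 200 so chosen transcripts had a higher CPM in the flower than in both leaf and stem of that tree, in each of the 6 trees. Of all 30113 eligible transcripts, this was true of 33.6, 29.8 and 36.7% in Eq4, Eq5 and Eq6 and of 32.4, 34.0 and 32.8% in St1, St2 and St4. The median ratio of the chosen transcripts, each level plus 1, was 21.9, 40.6 and 22.6 in Eq4, Eq5 and Eq6 and 19.2, 29.2 and 27.2 in St1, St2 and St4. A ratio over 4 was found for 181 of them in Eq4 and 189 in Eq6, and for 197 to 199 in the other trees.

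Most members were counted outside flowers as well, at a low level. A leaf library counted 103 to 128 of the 200 and a stem library 108 to 150, except the St1 stem, which counted 186. At 1 CPM the picture was sparser: 61 members stayed under 1 CPM in all 12 libraries, and 39 exceeded 10 CPM in at least 1. In all 6 leaves, 42 members were at 0 counts. As_24091, As_24084 and As_10635 had 0 counts in all 12 libraries, which together allow up to 0.0210 CPM (3 counts of the summed total).

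The St1 stem was the highest of the 12 leaf and stem libraries for 76 members, while the other 5 stems together led for 74 and the 6 leaves for 47. The members' share of its counts, 0.154%, exceeded the 0.0846% of the next library. In each tree the level of a member in stem or leaf was expressed as a percentage of its level in the same tree's flower. The median percentage was 2.06% in the St1 stem and 0.0450 to 0.850% in the other 11 libraries. The St1 stem therefore set the rank of many members, and without it 192 of the 200 remained.

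In that library the members ran with their levels in flowers in general, and most closely with the flower of the same tree. For 82 members all the other 11 leaf and stem libraries were under 1 CPM, and the St1 stem counted 71 of these and was the highest of the 12 for 48. The choice of these 82 capped the other 11 libraries and not the St1 stem. Neither the low level of the others nor the lead of the St1 stem among the 82 is thus a result. Summed over the 82, the St1 stem held 1.56% of the St1 flower. Per member the percentage had a median of 1.49% and quartiles of 0.939 and 2.10%, and it ran from 0 to 6.31%. Across these 82 members, which share library depth and are not independent, the Pearson correlation of log2(CPM + 0.1) in the St1 stem was 0.899 with the St1 flower, 0.853 with the St4 flower and 0.740 to 0.794 with the other 4. No such correlation was computed for the other stems, whose levels the choice of the 82 had capped. The part of flower material or flower reads in the St1 stem was not tested.

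**Figure D2:**
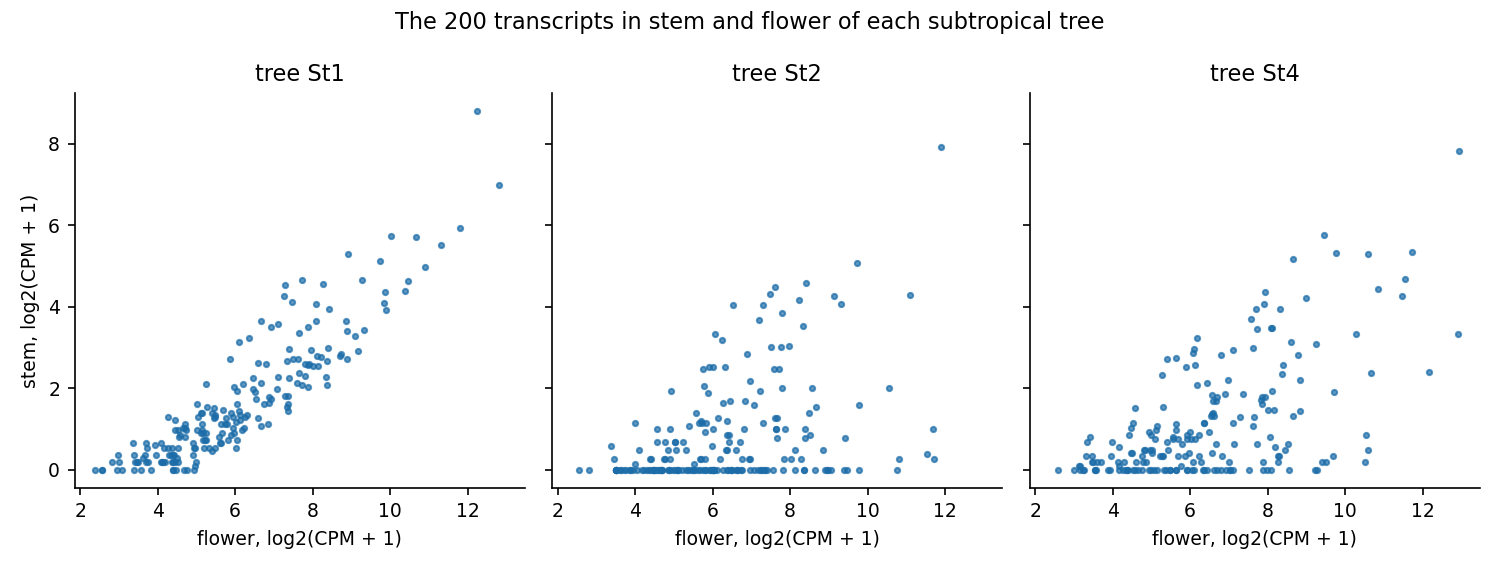
Each point is 1 of the 200 transcripts, with its level in the flower on the horizontal and in the stem on the vertical axis, both as log2(CPM + 1), for the 3 subtropical trees. In St1 the stem level follows the flower level, with 186 members counted in the stem, whereas the stems of St2 and St4 counted 108 and 150 and many points lie at 0.

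The members had a higher median spread between flowers than the whole table. On library sizes scaled by the trimmed mean of M-values (TMM), which matches libraries on the bulk of their transcripts, the coefficient of variation over the 6 flower libraries had a median of 44.6% for the members and 32.3% for all 29232 transcripts tested. Without the library labelled Eq6 the medians were 44.8% and 32.1%. Among the 3 subtropical flowers they were closer, 28.9% and 25.9%, and between Eq4 and Eq5 wider apart, 44.1% and 22.3%. The biological coefficient of variation that edgeR fits around the site means gave 0.390 for the median member and 0.360 for the median transcript with 6 libraries. With 5 libraries the order turned, 0.341 against 0.362.

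The highest flower level of a member was a median of 2.97 times its lowest by CPM, with 35 members under 2 and 10 over 10. By CPM on library totals, As_25975 was the steadiest, with a coefficient of variation of 9.10%, and on the TMM scale it was 18.02% and ranked 7. Its flowers held 275, 320 and 267 CPM in Eq4, Eq5 and Eq6 and 277, 332 and 290 in St1, St2 and St4, and the sites overlapped. On the TMM scale As_24316 had the lowest value, 11.2%, a member singled out after its values were seen. At the other end, As_10635 was high in 1 tree. It had 4.95, 8.63 and 20.1 CPM in Eq4, Eq5 and Eq6 and 4.23, 87.6 and 5.01 in St1, St2 and St4, which gives a coefficient of variation of 151%, although no count was found in any leaf or stem. The widest range belonged to As_44453, which is described with the site difference.

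Eq5 led the variation among the members. On the TMM scale its flower was the highest of the 6 for 114 members, against 28 in St2, 20 in St4, 16 in Eq4 and 11 each in Eq6 and St1. The median member was higher in Eq5 than in the other flowers by 0.60 to 0.96 on the log2 scale, and by 0.28 to 0.84 on library totals. The flower labelled Eq6 was the lowest for 64 members and Eq4 for 46. By library totals alone Eq5 still led for 92 members, but the library with the most lowest values was then Eq4, with 75. These counts, and the component and distances given next, were taken over the members only. Whether the lead of Eq5 is particular to the members was not tested.

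The first component of the members' variation between flowers held 47.2% of it on the TMM scale. Eq5 lay at 0.81 on this axis and Eq4 at 0.18, St4 at -0.05, St1 at -0.24, St2 at -0.26 and Eq6 at -0.43. On this scale the library labelled Eq6 and that of Eq5 thus lay at opposite ends. By library totals the first component held 38.7%, with Eq5 at 0.712 and Eq4 at 0.393. St4 was then at -0.156, St1 at -0.221, Eq6 at -0.362 and St2 at -0.367. On the TMM scale, Eq4 and Eq5 themselves differed by a root mean square of 1.04 in log2. This was more than any pair of subtropical flowers, at 0.68 to 0.91. The library labelled Eq6 differed by 0.75 from St4, 0.79 from St1 and 0.95 from St2, against 1.003 from Eq4 and 1.44 from Eq5. Nor was Eq4 nearer to Eq5 than to the subtropical flowers on this scale. It differed by 0.865 from St1, 0.981 from St4 and 1.043 from St2, against 1.044 from Eq5. By library totals the order changed. Eq4 then differed by 1.004 from Eq5, less than from St4 (1.084) and St2 (1.120) but more than from St1 (0.883).

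**Figure D3:**
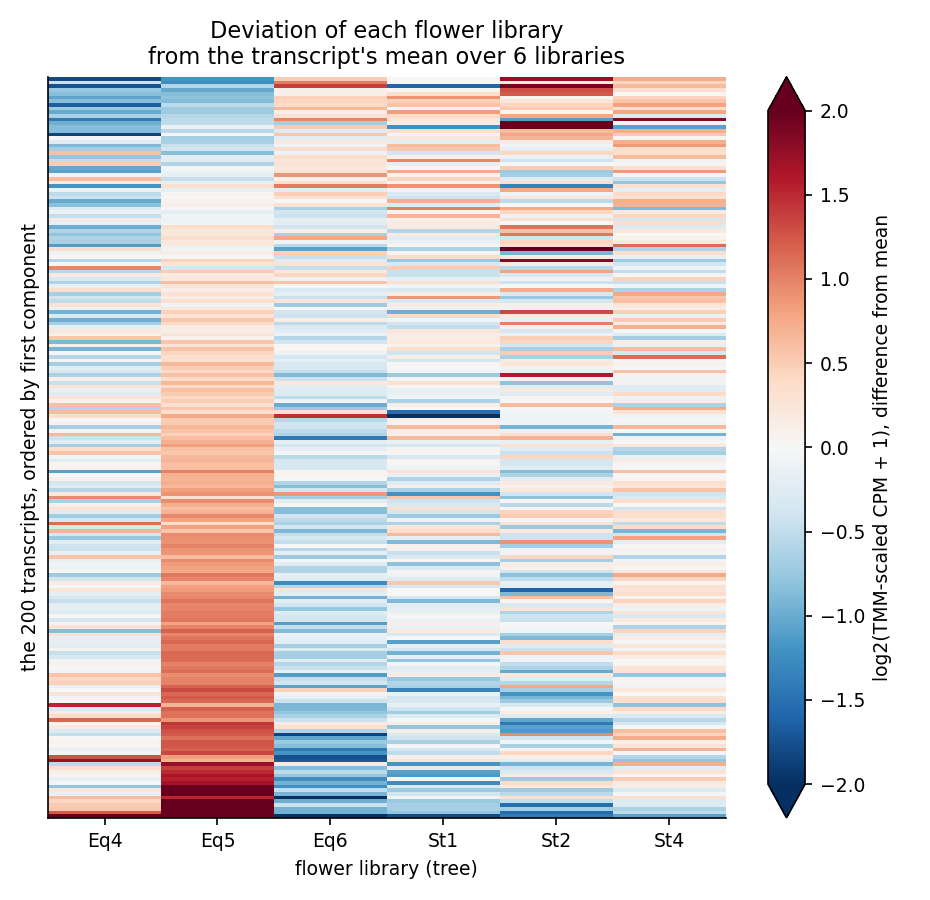
Each row is 1 of the 200 transcripts and each column a flower library, and the colour gives the difference of log2(TMM-scaled CPM + 1) from the transcript's mean over the 6 libraries, red above and blue below, with the scale ending at -2 and 2. Rows are ordered by the first component, which holds 47.2% of the variation, and the Eq5 column, the highest for 114 members, is red over most of its length.

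The site comparison asked which flower-specific transcripts differed between subtropical and equatorial flowers. The choice of members did not use the site labels, but it required a level in all 6 flower libraries. A transcript near 0 in the flowers of either site could not be a member. With 5 libraries, log2 fold changes ran from -4.82 to 2.55 for the members and from -12.96 to 14.48 for all transcripts tested. Shares of the members beside the whole table are therefore not free of the choice. Log2 fold changes are subtropical over equatorial, from edgeR's quasi-likelihood test with TMM scaling, and p-values were adjusted by Benjamini-Hochberg over the whole table. The p-values measure the spread between the 3 trees of a site, or the 2 equatorial trees without Eq6. With the 6 libraries as labelled, 0 of the 200 members passed an adjusted p of 0.05, as did 0 of all 29232 transcripts (percent called 0). An unadjusted p under 0.05 was found for 22 members (11%), with 5.66% of all transcripts tested as background. Neither edgeR's exact test nor DESeq2 called a member, while they called 6 and 50 transcripts in all (background 0.0205% and 0.171%).

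In this contrast the median member changed by -0.10 and the median of all transcripts by 0.01. The libraries of the sites did not overlap, on the TMM scale, for 13 members (6.5%), against 10.4% of all transcripts. As_41876 was one of these and did not pass the test. Its flowers held 4.55 CPM in Eq4, 5.62 in Eq5 and 10.3 in Eq6, against 13.1 in St1, 17.8 in St2 and 18.5 in St4, a log2 fold change of 1.24 (SE 0.30, adjusted p = 0.866 by edgeR). The 6 values did not overlap between sites, and Eq6 was the equatorial value nearest to the subtropical ones. As_22968 was apart in the other direction, with 51.2 CPM in Eq4, 80.6 in Eq5 and 114 in Eq6, against 20.9 in St1, 42.0 in St2 and 40.9 in St4. Here Eq6 was the equatorial value farthest from the subtropical ones by library totals, whereas on the TMM scale Eq5 was. The log2 fold change was -1.28 (SE 0.32, adjusted p = 0.866 by edgeR).

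Without the library labelled Eq6, 3 of 200 members passed (1.5%), with 1.79% of the 32029 transcripts tested as background, so the members were called at about the rate of the whole table. Of these 3, 2 were higher in equatorial flowers (background 1.45%) and 1 in subtropical flowers (background 0.343%). At an unadjusted p under 0.05 there were 45 members (22.5%), against 15.6% of all transcripts, 28 of them higher in equatorial flowers (background 8.04%) and 17 in subtropical flowers (background 7.57%).

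As_44453 showed the largest change of the members and was higher in equatorial flowers. Its level was 206.5 CPM in Eq4 and 785 in Eq5, against 14.4 in St1, 21.2 in St2 and 26.2 in St4. Both equatorial values lay far above the 3 subtropical ones. The library labelled Eq6 had 15.2 CPM, within the subtropical range by library totals, while on the TMM scale it lay below all 3 subtropical flowers. The log2 fold change was -4.82 (SE 0.58, adjusted p = 0.0253 by edgeR, 5 libraries). With Eq6 included as equatorial it was -4.23 (SE 1.21, adjusted p = 0.866 by edgeR). In leaves and stems this member stayed at 0 to 0.296 CPM.

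As_23643 was also higher in equatorial flowers. It had 357 CPM in Eq4 and 864 in Eq5, against 99.8 in St1, 63.3 in St2 and 129 in St4, with 109 in Eq6. The equatorial values again stood above all subtropical ones and Eq6 among the latter. The log2 fold change was -2.88 (SE 0.46, adjusted p = 0.0362 by edgeR, 5 libraries). With Eq6 counted as equatorial it was -2.37 (SE 0.75, adjusted p = 0.866 by edgeR).

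As_7876 went the other way and was higher in subtropical flowers. It had 17.8 CPM in Eq4 and 16.9 in Eq5, against 52.1 in St1, 48.5 in St2 and 59.2 in St4, and 62.5 in Eq6. Spread within each site was small beside the difference. By library totals Eq6 lay above all 5 other libraries, and on the TMM scale it lay within the range of the subtropical flowers. The log2 fold change was 1.37 (SE 0.22, adjusted p = 0.0360 by edgeR, 5 libraries). With all 6 libraries it was 0.75 (SE 0.40, adjusted p = 0.868 by edgeR). All 3 calls were lost when Eq4, St1, St2 or St4 was left out, and in each of these 4 fits 0 of all transcripts passed. Without Eq5, As_44453 passed alone of the members (0.5%), with 0.754% of all transcripts tested as background. Over the 5 fits that each left out 1 library, the log2 fold change of As_44453 ran from -5.49 to -3.61, that of As_23643 from -3.38 to -2.16 and that of As_7876 from 1.29 to 1.45.

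**Figure D4:**
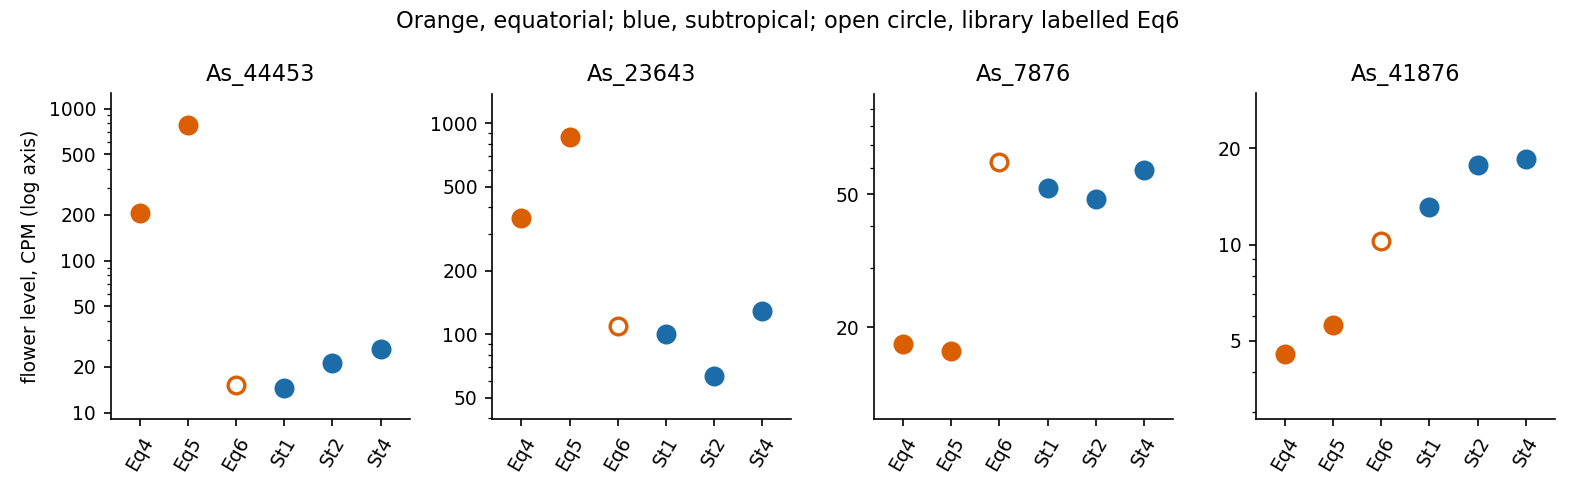
Levels in the 6 flower libraries, in CPM on log axes that differ between panels, of the 3 transcripts that passed the test with 5 libraries and of As_41876, which did not. Filled orange circles are equatorial, blue circles subtropical, and the open circle is the library labelled Eq6. By CPM this library lies within the subtropical range for As_44453 and As_23643, above it for As_7876 and between the sites for As_41876. On the TMM scale, not drawn, it lies below the subtropical range for As_44453 and within it for As_7876.

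How many members were called depended on the test. With 5 libraries, edgeR's exact test called 24 members (12%, background 5.89%), 14 higher in equatorial flowers (background 3.68%) and 10 higher in subtropical ones (background 2.21%). DESeq2 called 25 (12.5%, background 5.70%), of which 15 (background 3.62%) and 10 (background 2.09%) in these directions. These lists had 24 members in common (100% of the first and 96% of the second), among them the 3 of the quasi-likelihood test. The fit over all tissues at once called 1 (0.5%, background 2.05%). The members' mean level in these libraries, with a median log2 CPM of 6.11, was above that of all transcripts tested, 3.10, and its part in these counts was not tested.

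As a group, the members leaned towards equatorial flowers when Eq6 was left out. The median log2 fold change was -0.27, and 136 of 200 members were below 0 (68%), against a median of 0.02 and 48.5% for all transcripts tested. This lean came with the level of Eq5. Without Eq5 the median member was at 0.10 and the median of all transcripts at 0.08, so the members no longer lay apart from the table. The medians themselves moved with the scaling, since library totals alone gave the members -0.02 and all transcripts 0.27. A change of scaling shifts the log2 fold changes of all transcripts together. The members' similar distance below the table under both scalings is thus no separate result.

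**Figure D5:**
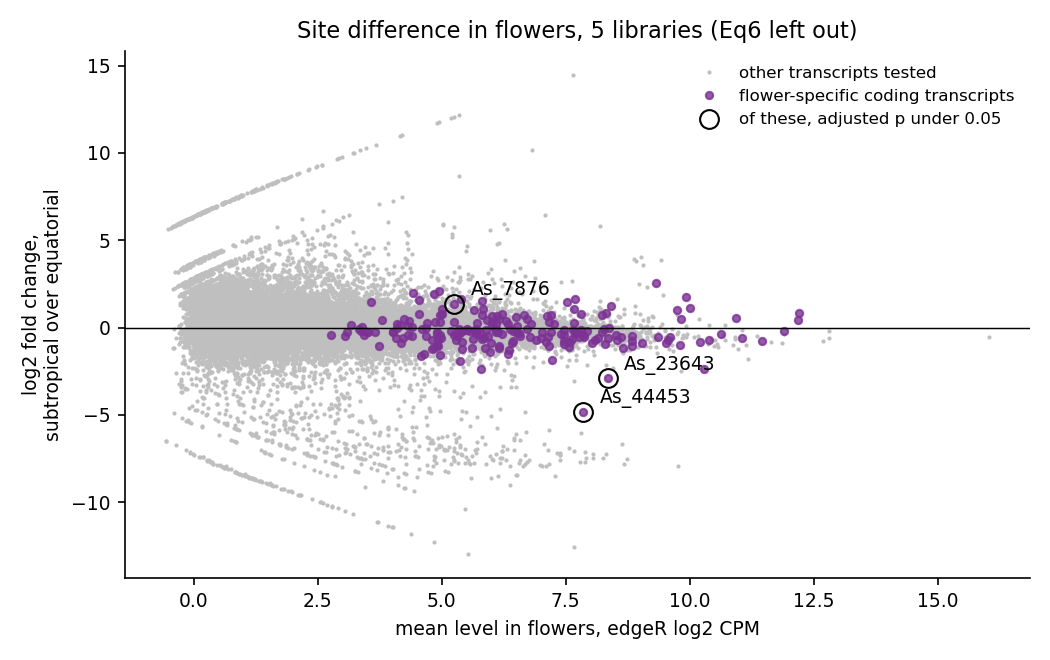
Log2 fold change between sites, subtropical over equatorial, against mean flower level (edgeR log2 CPM) for the 32029 transcripts tested with 5 libraries. Grey points are other transcripts, purple points the 200 flower-specific transcripts, and circles mark the 3 of them with an adjusted p under 0.05; the members' median is -0.27.

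Libraries of the sites did not overlap for members in both directions. On the TMM scale both equatorial flowers lay above all 3 subtropical flowers for 41 members (20.5%, background 18.4%) and below them for 20 (10%, background 16.6%). By library totals the split was 22 members above (11%, background 9.46%) and 28 below (14%, background 28.3%). Neither share was tested against that of the whole table, and for members higher in subtropical flowers the counts by adjusted or unadjusted p lay on the other side of their backgrounds.

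The position of the library labelled Eq6 among the members was much as in the whole table. It was nearer to the subtropical than to the equatorial mean for 146 of 200 members (73%), against 65.5% of all transcripts tested. Among the 61 members whose 5 other libraries did not overlap between sites, this held for 51 (83.6%), against 77.5% of such transcripts in the whole table. For the 32 of these with a difference over 2-fold the order turned, with 84.4% of the members and 89.0% of all. It lay within the range of the 3 subtropical flowers for 100 members (50%), against 52.1% of all transcripts tested.

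A further measure moved with the libraries in this contrast. The 8 photosynthesis transcripts, which the study listed from these trees for a site difference, summed to 84.3 CPM in the flowers of Eq4 and 78.2 in Eq5, against 247 in St1, 186 in St2 and 272 in St4, and to 259 in Eq6. The amount of green tissue, the flower stage and the share of each floral organ in a library were not measured, and their part in the members' site differences was not tested.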

How the data were processed

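Samples were grouped by site and tissue from the deposited labels. The authors assembled quality-filtered paired-end reads into a transcriptome without a genome, and the deposited values are raw counts of reads mapped uniquely to each transcript (Bowtie 0.12.2 by the submitters' processing notes), so reads shared by close gene copies are missing. All 18 columns of the table were mapped to a sample, and 0 were left out for want of one. CPM by library totals chose the members. The site difference was fitted on the whole table of counts with edgeR 4.0.16 (glmQLFit and glmQLFTest, TMM scaling, filterByExpr by site; limma 3.58.1, R 4.3.3), with Benjamini-Hochberg adjustment and a threshold of 0.05. All 200 members passed the filter on low counts. The script was tested on data simulated with less spread between libraries than the median transcript had here. That test checks the code and not the error rate in these data. Alternatives were edgeR's exact test, named in the study's methods, DESeq2 1.42.0, RLE scaling, library totals alone, a fit of all tissues together, leaving out each library, and other filters on low counts (none, or over 1 CPM in 3 or more libraries). Membership was recomputed with other pseudocounts, statistics, scalings and samples. Depth was 5055480 to 15802680 counts per library, and with 1 library per tree and tissue p-values measure the spread between trees. Transcripts were named by rank of score, level, spread and site difference, and at the threshold. The members, lists and naming rule were chosen with earlier results of these data known.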

Additional observations from a re-analysis of the deposited data

Results flagged for a closer look

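Non-coding transcripts were outside the choice of members, and 23 of the 19263 non-coding transcripts reached at least the score of the last member. They are in the table on which the site difference was fitted, but no value of theirs is among the members'. Their mean flower levels were 9.41 to 619 CPM with a median of 68.6, close to the members' median of 65.9. The highest of them scored 5.03, and the highest leaf or stem level was at most 73.6 CPM, with a median of 1.28.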

How the results depend on the processing

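No paired analysis was possible because the sites compared are different trees and share only the number 4. With 6 libraries, 12 of 13 alternatives called 0 members, and leaving out 1 library gave 0 to 3, the 3 being those without Eq6. With 5 libraries, RLE scaling, no filter and the CPM filter each called 3 members, as in the main test. The exact test called 24 (12%, all transcripts 5.89%), DESeq2 25 (12.5%, 5.70%), library totals alone 5 (2.5%, 1.65%) and the fit over all tissues 1 (0.5%, 2.05%). Leaving out 1 library gave 0 to 1, with 0 to 0.754% of all transcripts called. In the fits that leave out Eq4 or Eq5, the lone equatorial library is assumed to vary like the subtropical ones. Why the tests differ was not tested. The log2 fold changes of the 5 members named for a site difference in the text kept their direction under every alternative of their contrast, and those of As_44453 with 5 libraries ran from -5.49 to -3.61, with adjusted p from 5.61e-16 (DESeq2) to 0.107. Of the 200 members, other choices kept 136 (medians in place of extremes) to 196 (without the flower labelled Eq6). Pseudocounts of 0.1 and 5 kept 158 and 165, and TMM scaling kept 190. Leaving out each tree kept 173 to 191. The alternative without the St1 stem was chosen after the data were seen and kept 192. Depth limits members near 5 CPM in flowers, where the lowest count was 23, and the absence of a member from a leaf or stem.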

Other observations

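The members were unevenly spread over the numbers of the transcript names, which come from the assembly. Of the 200 members, 51 fell in the 2 fullest of 51 blocks of 1000 numbers, and 9 blocks held none. In the block from 23000 to 23999, 33 of 629 eligible transcripts were members (5.25%), against 0.664% of all eligible transcripts, and in the block from 10000 to 10999 there were 18 of 529 (3.40%). What the numbers follow is not given in the sources used here.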
